A study of Mus musculus with 10 samples.

Results

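The genes described here are 10 markers of quiescent hepatic stellate cells, Lrat, Reln, Rgs5, Ecm1, Hand2, Hhip, Colec10, Colec11, Ngfr and Dcn, taken as a given list out of 55385 gene IDs and matched to the tables by symbol. All 10 were found, each at 1 gene ID, and 9 had enough counts to be tested. They were measured in RNA of frozen whole mouse liver, in 5 libraries labelled Alk1-HEC-KO (genotype KO) and 5 control libraries (genotype Ctrl). By the title of the series the deleted gene is Alk1, whose official symbol is Acvrl1. The labels do not spell out HEC and name no Cre driver, strain, sex, age or treatment for either group. Nothing in them says that each library is a different mouse, and p-values cover no more than the spread among these 10 libraries, which may be technical.

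Stellate cells are the vitamin A storing pericytes of the liver. They lie between the sinusoidal endothelium and the hepatocytes, keep retinyl esters in lipid droplets while quiescent, and turn into matrix-producing myofibroblasts in injury. They also make ligands that act on the endothelium beside them, among them BMP9 and BMP10, which bind ALK1. In RNA of whole liver, fewer cells of a type and less RNA per cell cannot be told apart.

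Acvrl1 itself went against the label. It averaged 1.36 ± 0.331 TPM in libraries labelled Alk1-HEC-KO and 0.669 ± 0.331 TPM in control libraries (SD, n = 5 each), and its log2 fold change was 0.99 ± 0.32 (standard error; adjusted p = 0.34 by Benjamini-Hochberg, quasi-likelihood test in edgeR). A value over the whole gene checks no single exon, and every direction given here rests on the label. TPM (transcripts per 1e6) is a level per transcript length with an equal sum in each library. Depth was even, at 20.91 to 21.56 M (1e6) estimated counts per library. Libraries that stood apart were labelled Alk1-HEC-KO libraries 4 and 5 and control library 4, with 6730, 13300 and 6590 TPM of the acute phase gene Saa1 against at most 874 TPM elsewhere, and control libraries 1 and 2, with 27.6 and 24.2 TPM of the immediate early gene Fos against at most 4.92 TPM elsewhere.

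No stellate gene passed the test between the groups. Of the 9 tested, 0 were called over all genes (edgeR, adjusted p under 0.05), while 0.357% of the 12872 tested genes were. DESeq2 and limma called none of the 9 either. Rgs5 was the only one with an unadjusted p under 0.05, a mark that 8.44% of tested genes met, and 5.03% met in the direction of Rgs5. On the log2 scale 5 pointed higher and 4 lower in libraries labelled Alk1-HEC-KO, where the 5 include Ecm1 at 0.00. Their median log2 fold change was 0.00, as was the median over all tested genes. The differences ran from -0.46 for Reln to 0.81 for Rgs5.

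A difference of 2-fold or more in either direction lay outside the 95% interval for 6 of the 9 genes, namely Lrat, Ecm1, Dcn, Colec10, Colec11 and Hand2. The same held for 75.8% of all tested genes. For Reln the interval reached down to -1.07, and for Ngfr and Rgs5 it reached up to 1.20 and 1.31. Over the alternative settings and left-out libraries, Reln ran from -0.71 to -0.24, Hand2 from -0.79 to -0.24, Colec10 from -0.61 to -0.05, Colec11 from 0.06 to 0.37 and Ngfr from 0.24 to 0.72, and none of them was called.

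**Figure D1:**
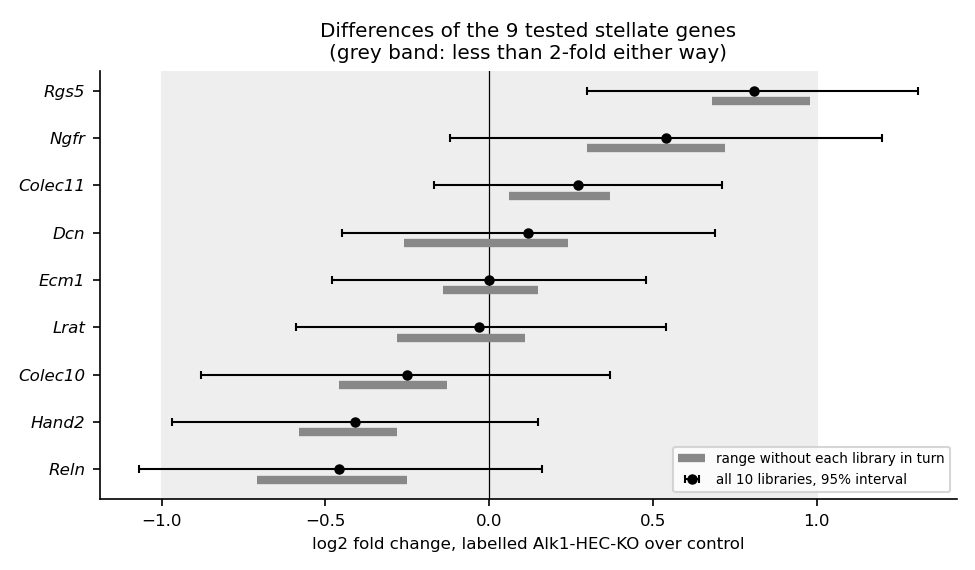
Log2 fold change of the 9 tested stellate genes, labelled Alk1-HEC-KO over control, with 95% intervals (points and thin bars) and the range when each library was left out in turn (thick grey bars). The interval of Rgs5 lies wholly above 0, and those of Reln, Ngfr and Rgs5 leave the band of less than 2-fold.

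By level the list spans nearly 3 orders of magnitude. Ecm1 and Dcn averaged 61.7 and 54.7 TPM over the 10 libraries, above 90.3% and 89.5% of tested genes. Next came Colec11 at 10.7, Rgs5 at 5.15, Reln at 4.56, Colec10 at 2.56, Hand2 at 2.22, Lrat at 1.28, Ngfr at 0.682 and Hhip at 0.103 TPM. The ranges of neighbours in this order overlapped everywhere except between Dcn and Colec11 and between Ngfr and Hhip. Hepatocyte markers dominated the tissue, with a summed level of 48800 to 83400 TPM over 8 genes in libraries labelled Alk1-HEC-KO and 45800 to 79700 TPM in control libraries. The 10 stellate genes summed to 83.2 to 239 TPM in libraries labelled Alk1-HEC-KO and 109 to 179 TPM in control libraries.

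The bases just before the start sites are shown for Rgs5, the gene with the largest difference, and for Lrat, Reln and Ecm1, which carry the retinoid and matrix results below. They are the 250 bases upstream of the RefSeq start, 5′ to 3′ on the gene's strand, GRCm38.p6, at chr1:169655251-169655500 (plus strand), chr3:82903975-82904224 (minus), chr5:22344706-22344955 (minus) and chr3:95739570-95739819 (minus). Capitals mark E-boxes, the CANNTG motif that basic helix-loop-helix factors such as HAND2 bind, whose form is the same on both strands.
Rgs5: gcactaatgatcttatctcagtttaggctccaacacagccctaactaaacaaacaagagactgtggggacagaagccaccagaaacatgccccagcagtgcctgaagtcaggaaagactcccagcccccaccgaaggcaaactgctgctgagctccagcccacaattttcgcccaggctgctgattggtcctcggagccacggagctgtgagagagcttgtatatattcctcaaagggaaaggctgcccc
Lrat: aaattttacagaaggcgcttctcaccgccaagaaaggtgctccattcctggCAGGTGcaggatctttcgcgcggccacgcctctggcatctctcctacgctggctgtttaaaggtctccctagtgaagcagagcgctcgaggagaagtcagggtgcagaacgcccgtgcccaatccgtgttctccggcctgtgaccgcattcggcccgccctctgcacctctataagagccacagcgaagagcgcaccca
Reln: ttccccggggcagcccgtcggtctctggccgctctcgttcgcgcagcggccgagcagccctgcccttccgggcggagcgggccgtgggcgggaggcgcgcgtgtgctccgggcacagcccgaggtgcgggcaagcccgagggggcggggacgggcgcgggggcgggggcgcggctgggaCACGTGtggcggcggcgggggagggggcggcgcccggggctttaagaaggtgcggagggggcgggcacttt
Ecm1: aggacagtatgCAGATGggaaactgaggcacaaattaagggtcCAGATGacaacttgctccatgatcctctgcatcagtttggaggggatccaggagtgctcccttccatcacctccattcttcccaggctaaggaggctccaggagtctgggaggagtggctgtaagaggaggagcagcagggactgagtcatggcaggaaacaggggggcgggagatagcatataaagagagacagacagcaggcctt
The RefSeq promoter table held 8 of the 10 stellate genes, all but Colec10 and Dcn. An E-box stood in 6 of these 8 windows and in 66.2% of the 32851 windows of all genes. The Reln window was 80.0% G and C, against a median of 52.4% over all windows. A match is a description of letters and not of binding, and the window of Rgs5 held none.

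Lrat encodes lecithin retinol acyltransferase, the enzyme that esterifies retinol for storage and the gene most used to mark stellate cells in mouse liver. It lies on the minus strand of chromosome 3, 82892579 to 82903973 (ENSMUSG00000028003.6, GRCm38). Lrat stood at 0.759, 1.28, 1.60, 2.10 and 0.818 TPM in labelled Alk1-HEC-KO libraries 1 to 5, against 1.18, 1.80, 1.27, 1.07 and 0.955 TPM in control libraries 1 to 5. The groups overlapped widely: libraries labelled Alk1-HEC-KO held both the lowest and the highest value. On the log2 scale the difference was -0.03 (standard error 0.26), a fold of 0.983 (95% interval 0.666 to 1.45; edgeR, adjusted p = 0.98). Among 24 genes of retinoid uptake, storage and signalling, 20 were tested, 0 rose and 0 fell (edgeR, and 1 had an unadjusted p under 0.05), and their median was 0.05. That 1 gene was Aldh1a1, an enzyme that oxidises retinal to retinoic acid and that hepatocytes express strongly, at 211 ± 71.3 TPM in libraries labelled Alk1-HEC-KO and 342 ± 76.8 TPM in controls (SD, n = 5; log2 fold change -0.80, standard error 0.22; edgeR, adjusted p = 0.26). It was called lower by DESeq2 and without the count filter (adjusted p = 0.042 and 0.027). Ttr, the plasma carrier partner of retinol-binding protein and the most abundant of the 20, differed by 0.08 ± 0.16 (log2 fold change and standard error). Rarg, a retinoic acid receptor (0.19 without labelled Alk1-HEC-KO library 4), and Rarres2, which encodes chemerin, stood at 0.47 ± 0.32 and -0.28 ± 0.20 on the same scale and did not pass.

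Reln, Ecm1 and Dcn encode secreted or matrix proteins. Reelin, the Reln product, is a large extracellular glycoprotein best known from neuronal layering. Reln (ENSMUSG00000042453.14, chromosome 5, 21884454 to 22344702, minus strand) stood at 3.55, 5.02, 4.53, 4.64 and 0.979 TPM in labelled Alk1-HEC-KO libraries 1 to 5, against 5.54, 9.54, 3.48, 5.23 and 3.03 TPM in control libraries 1 to 5. Labelled Alk1-HEC-KO library 5 was the lowest of all and control library 2 the highest, with the other 8 overlapping. Its log2 fold change came to -0.46 (standard error 0.28; edgeR, adjusted p = 0.70). It was -0.71 without labelled Alk1-HEC-KO library 4, -0.28 without library 5 of that label and -0.25 without control library 2. Of 8 genes of the reelin receptors and their signalling, 5 were tested and 0 passed in either direction (edgeR, 1 at an unadjusted p under 0.05), with a median of -0.24. The receptor genes Vldlr and Lrp8 and the adaptor gene Dab1 had too few counts to test, at up to 0.151 TPM on average in either group.

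ECM1 is a secreted glycoprotein that holds latent TGF-beta inactive in mouse liver. Its gene (ENSMUSG00000028108.15, chromosome 3, 95734147 to 95739569, minus strand) had 61.8, 64.5, 72.7, 88.4 and 29.1 TPM in labelled Alk1-HEC-KO libraries 1 to 5 and 66.7, 84.2, 55.1, 40.6 and 54.0 TPM in control libraries 1 to 5. Labelled Alk1-HEC-KO library 5 was lowest and library 4 highest, so the controls lay inside their range. This gave 0.00 on the log2 scale (standard error 0.22), and a fold outside 0.718 to 1.40 lay beyond the 95% interval (edgeR, adjusted p = 1.0).

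Decorin, the Dcn product, is a small leucine-rich proteoglycan that binds collagen fibrils, and portal fibroblasts make it too. Dcn (ENSMUSG00000019929.16, chromosome 10, 97479609 to 97518143, plus strand) stood at 46.1, 57.9, 41.9, 110.0 and 35.8 TPM in labelled Alk1-HEC-KO libraries 1 to 5, against 53.6, 63.3, 47.4, 47.2 and 44.2 TPM in control libraries 1 to 5. Labelled Alk1-HEC-KO library 4 stood alone at the top and the other 9 libraries overlapped. On the log2 scale the difference was 0.12 (standard error 0.26; edgeR, adjusted p = 0.93), and -0.26 without that library. Of 11 other small leucine-rich proteoglycan genes 7 were tested, 0 passed (edgeR, 0 also at an unadjusted p under 0.05), and their median was -0.33.

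**Figure D2:**
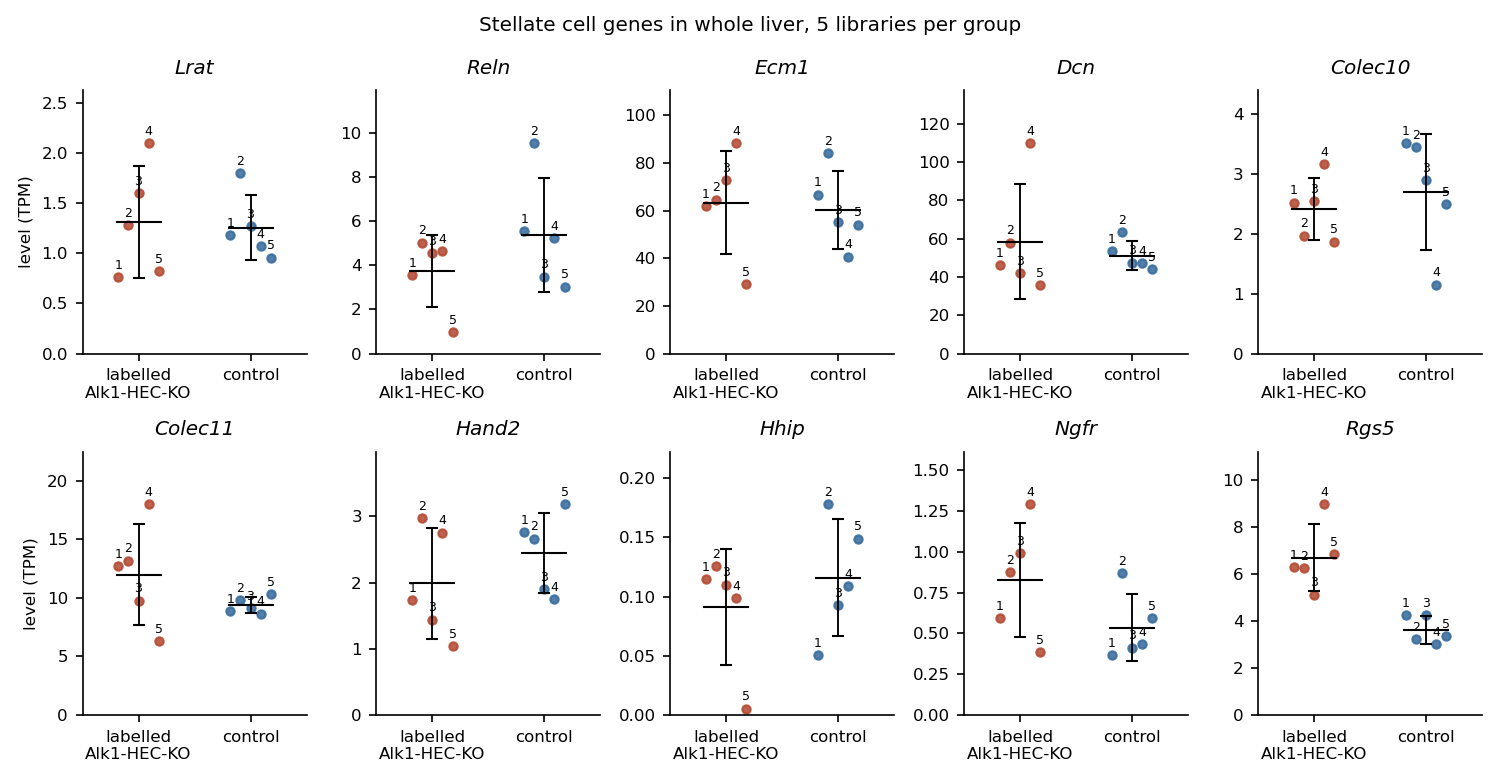
Level in TPM of the 10 stellate genes in each library, labelled Alk1-HEC-KO on the left of each panel and control on the right. Points are libraries with their numbers, and bars are mean and SD of 5 libraries. The groups overlap in every panel except that of Rgs5.

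Colec10 and Colec11 encode collectins, soluble lectins that recognise sugars on microbes and start the lectin pathway of complement together. Their log2 fold changes had opposite signs. Colec10 (ENSMUSG00000038591.3, chromosome 15, 54410774 to 54466358, plus strand) had 2.52, 1.97, 2.55, 3.16 and 1.87 TPM in labelled Alk1-HEC-KO libraries 1 to 5, against 3.52, 3.45, 2.90, 1.15 and 2.49 TPM in control libraries 1 to 5. The lowest value was that of control library 4, and the groups overlapped (log2 fold change -0.25, standard error 0.29; edgeR, adjusted p = 0.85). Colec11 (ENSMUSG00000036655.8, chromosome 12, 28594173 to 28623377, minus strand) had 12.7, 13.2, 9.78, 18.0 and 6.33 TPM in labelled Alk1-HEC-KO libraries 1 to 5 and 8.89, 9.83, 9.14, 8.65 and 10.3 TPM in control libraries 1 to 5. Its control values lay close together, with an SD of 0.700 TPM, while those labelled Alk1-HEC-KO had an SD of 4.34 TPM and lay on both sides of them. Its log2 fold change came to 0.27 (standard error 0.20; edgeR, adjusted p = 0.75). Whether the 2 collectin genes differed from each other in response was not tested. Of 10 other genes of the lectin pathway, 9 were tested and 0 passed (edgeR, 0 also at an unadjusted p under 0.05), with a median of 0.02.

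Hand2 and Hhip are regulators. HAND2 is a basic helix-loop-helix transcription factor that stellate cells share with other mesenchyme. Hand2 (ENSMUSG00000038193.4, chromosome 8, 57320983 to 57324633, plus strand) had 1.73, 2.97, 1.44, 2.75 and 1.04 TPM in labelled Alk1-HEC-KO libraries 1 to 5, against 2.76, 2.66, 1.90, 1.75 and 3.18 TPM in control libraries 1 to 5. The 3 lowest values were from libraries labelled Alk1-HEC-KO and the highest from control library 5, but the ranges overlapped (log2 fold change -0.41, standard error 0.26; edgeR, adjusted p = 0.71). The value is uncertain, since the antisense gene Hand2os1 shares 461 of the 2351 exonic bases of Hand2 and strand use is not stated. Hand2os1 averaged 3.59 ± 1.37 TPM in libraries labelled Alk1-HEC-KO and 2.55 ± 0.926 TPM in controls (SD, n = 5).

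HHIP is a decoy that binds hedgehog ligands at the cell surface and is itself switched on by the pathway. Hhip (ENSMUSG00000064325.4, chromosome 8, 79965851 to 80058006, minus strand) had 20, 20, 7, 7 and 1 counts in labelled Alk1-HEC-KO libraries 1 to 5, against 9, 29, 16, 6 and 8 in control libraries 1 to 5, too few for the test on counts. In TPM it stood at 0.115, 0.126, 0.110, 0.0986 and 0.00523 in libraries labelled Alk1-HEC-KO and at 0.0508, 0.178, 0.0926, 0.109 and 0.149 in controls (exact two-sided permutation p = 0.47, where 5 against 5 cannot go below 0.0079). Only labelled Alk1-HEC-KO library 5 lay outside the range of the controls. Among 14 other hedgehog genes 8 were tested and 0 passed (edgeR, 1 at an unadjusted p under 0.05), with a median of 0.10. Ihh, the Indian hedgehog ligand, averaged 0.718 ± 0.784 TPM in libraries labelled Alk1-HEC-KO and 1.82 ± 0.517 TPM in controls (SD, n = 5; log2 fold change -1.36, standard error 0.56; edgeR, adjusted p = 0.54). Labelled Alk1-HEC-KO library 3 had 2.07 TPM of Ihh, the other 4 of that label 0.147 to 0.705 TPM, and without library 3 the log2 fold change was -2.18 (edgeR, adjusted p = 0.080). It was -0.78 with the run of file numbers as a covariate and -0.67 without the third run. The receptor Ptch1, a target of the pathway, stood at -0.34 ± 0.25 (log2 fold change and standard error), and the co-receptors Cdon and Gas1 at 0.66 ± 0.40 and 0.17 ± 0.17.

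For Reln and Hhip, counts and TPM did not move in step. The counts per TPM of a gene follow the average length of the transcripts its reads were given to. They also follow a scale of the library that all its genes share. For Lrat, Rgs5, Dcn, Ecm1, Hand2, Colec10, Colec11 and Ngfr the highest ratio over the 10 libraries was 1.21 to 1.27 times the lowest. For Reln it was 2.19 times and for Hhip 3.57 times. Labelled Alk1-HEC-KO library 4 had 461 Reln counts at 4.64 TPM, while control library 1 had 332 at 5.54 TPM. Hhip had 20 counts at 0.115 TPM in labelled Alk1-HEC-KO library 1 and 8 counts at 0.149 TPM in control library 5. With offsets for transcript length the log2 fold change of Reln was -0.62 and was still not called (edgeR).

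**Figure D3:**
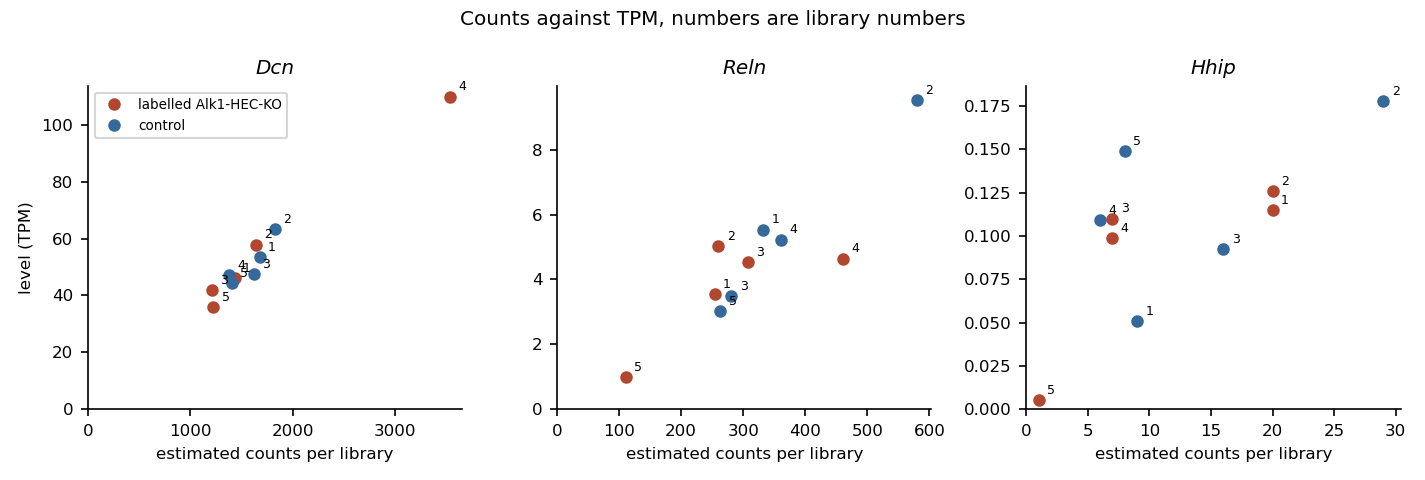
Estimated counts per library (horizontal axis) against TPM (vertical axis) for Dcn, Reln and Hhip in the 10 libraries, with library numbers beside the points. Dcn lies near 1 line through 0, while Reln and Hhip scatter, as their ratios of counts to TPM vary 2.19-fold and 3.57-fold between libraries.

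Ngfr encodes the p75 receptor of neurotrophins, which stellate cells near the portal tract carry and which nerve sheath cells also express. Ngfr (ENSMUSG00000000120.6, chromosome 11, 95568818 to 95587735, minus strand) stood at 0.593, 0.874, 0.991, 1.29 and 0.384 TPM in labelled Alk1-HEC-KO libraries 1 to 5, against 0.368, 0.870, 0.413, 0.433 and 0.595 TPM in control libraries 1 to 5. The 3 highest values were from libraries labelled Alk1-HEC-KO, but their library 5 lay near the bottom of the controls. This gave 0.54 on the log2 scale (standard error 0.31; edgeR, adjusted p = 0.68), and 0.30 without labelled Alk1-HEC-KO library 4. Of 11 genes of neurotrophins and their receptors 7 were tested and 0 passed (edgeR, 1 at an unadjusted p under 0.05), with a median of -0.01.

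Ngfr also stands in a list of 6 markers of stellate cells at the portal end of the lobule. With all libraries the 6 pointed higher, with a median of 0.29, and 0 passed (edgeR, 0 also at an unadjusted p under 0.05). Their summed level was 24.6 TPM in labelled Alk1-HEC-KO library 4, against 6.17 to 9.68 TPM in the other libraries labelled Alk1-HEC-KO and 6.23 to 13.8 TPM in controls. Without library 4, 4 pointed higher and 2 lower, with a median of 0.05. The members with the smallest p after Ngfr were Rgs4 and Il34, with log2 fold changes of 0.74 (0.49) and 0.42 (0.42), and the most abundant, Igfbp3, stood at 0.15 (0.36). A value in brackets after a log2 fold change is its standard error. Without labelled Alk1-HEC-KO library 4 Il34 stood at 0.04 and Igfbp3 at -0.34. Of 5 markers of the central end 3 pointed higher and 2 lower, with 0 passing (edgeR, 0 also at an unadjusted p under 0.05). Rspo3, which activates WNT signalling in hepatocytes, stood at -0.63 (0.33), Adamtsl2 at 0.83 (0.56) and Spon2 at 0.49 (0.36). Without labelled Alk1-HEC-KO library 4, which had 17.6 TPM of Adamtsl2 where the other 9 libraries had 1.76 to 4.66 TPM, that gene stood at -0.01. In the same setting Rspo3 stood at -0.92 and Spon2 at 0.64, and neither passed (edgeR).

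Rgs5 had the largest difference of the 9. It encodes a regulator that speeds the shut-off of G-protein signalling, and it marks pericytes and vascular smooth muscle in many organs as well as stellate cells. Rgs5 (ENSMUSG00000026678.10, chromosome 1, 169655501 to 169695813, plus strand) stood at 6.30, 6.24, 5.12, 8.96 and 6.84 TPM in labelled Alk1-HEC-KO libraries 1 to 5, against 4.26, 3.22, 4.25, 3.0 and 3.35 TPM in control libraries 1 to 5. Every library labelled Alk1-HEC-KO lay above every control library in TPM, which held for 1 of the 9 stellate genes. Groups that did not overlap were seen in 1.62% of tested genes, and in 1.31% with libraries labelled Alk1-HEC-KO on top. In log2 CPM, the scaled counts, where 1.68% of tested genes and 0 of the 9 had groups apart, the Rgs5 groups overlapped, since labelled Alk1-HEC-KO libraries 2 and 3 lay below control library 3. On the log2 scale the difference was 0.81 (standard error 0.23), a fold of 1.75 (95% interval 1.24 to 2.49), and did not pass (edgeR, unadjusted p = 0.0042, adjusted p = 0.28). The adjusted p was 0.068 in DESeq2 and ran from 0.068 to 1.0 over the 24 alternatives.

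The log2 fold change of Rgs5 ran from 0.39 to 0.98 over the 24 alternatives. Without single libraries it ran from 0.68 to 0.98, the highest value without control library 3. Where certain sets of libraries were left out it was smaller. It was 0.39 without the 3 libraries high in Saa1, 0.49 without labelled Alk1-HEC-KO libraries 4 and 5, and 0.48 with the run of consecutive numbers in the file names as a covariate. The file numbers fall into 3 runs whose meaning the labels do not give. In the first run, the 1 library labelled Alk1-HEC-KO had 6.30 TPM, against 3.22 and 4.26 TPM in its 2 controls. In the second, the 1 library labelled Alk1-HEC-KO had 5.12 TPM, against 3.0 to 4.25 TPM in its 3 controls. The third run holds 3 libraries labelled Alk1-HEC-KO, at 6.24 to 8.96 TPM, and no control, so it gives no difference of its own.

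Genes of the pericyte and smooth muscle list had differences in both directions. Of its 12 genes, Rgs5 included, 8 were tested, 5 pointed higher and 3 lower, and 0 passed (edgeR). The 3 with an unadjusted p under 0.05 (edgeR), Rgs5, Kcnj8 and Mcam, all pointed higher, and 8.44% of all tested genes met that mark. Acta2 and Myh11, which pointed lower, had 6.61 and 1.58 TPM in control library 1. The other controls had at most 1.07 and 0.24 TPM of them. Kcnj8, a potassium channel subunit of pericytes, averaged 1.21 ± 0.495 TPM in libraries labelled Alk1-HEC-KO and 0.568 ± 0.0593 TPM in controls (SD, n = 5; log2 fold change 1.01, standard error 0.29; edgeR, adjusted p = 0.28). Mcam, a surface protein of pericytes and endothelium, stood at 1.01 (0.36), or 0.62 without labelled Alk1-HEC-KO library 4, while Mylk, the smooth muscle myosin kinase and the most abundant member, stood at -0.29 (0.17). The summed level of the 12 was 17.8 to 38.8 TPM in libraries labelled Alk1-HEC-KO and 16.1 to 31.3 TPM in controls. The pericyte marker Higd1b was listed at 0 in all 10 libraries. Other RGS genes, 11 in the list and 8 tested, gave 0 that passed (edgeR, 1 at an unadjusted p under 0.05) and a median of 0.50.

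Several libraries had nearly all stellate genes high or nearly all low, in both groups. In log2 CPM, all 9 tested genes lay above their own median over the 10 libraries in labelled Alk1-HEC-KO library 4. There 6 of them had their highest value. In labelled Alk1-HEC-KO library 5 and in control library 4, 8 of the 9 lay below their median. Rgs5 was the exception in library 5 (0.83 above its median on the log2 CPM scale), and Reln in control library 4 (0.20 above). All 3 of these libraries are those high in Saa1, which thus included the library with the highest stellate levels and 2 with low ones. In control library 3, 8 of the 9 lay above their median in log2 CPM, but this depended on the scale. In TPM that library lay below the median for Reln, Rgs5, Ecm1, Hand2, Colec11 and Ngfr. The share of all tested genes above or below their median was not counted for any library.

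**Figure D4:**
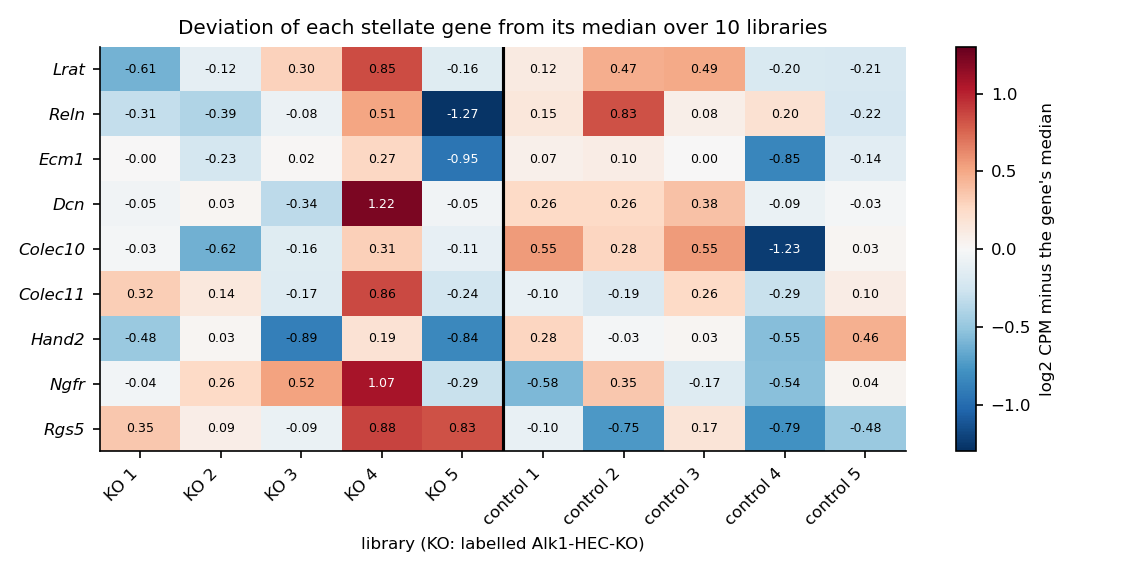
Deviation of each tested stellate gene from its own median over the 10 libraries, in log2 CPM (colour and printed value), with libraries labelled Alk1-HEC-KO left of the line and controls right of it. The column of labelled Alk1-HEC-KO library 4 is above the median for all 9 genes, and the columns of labelled Alk1-HEC-KO library 5 and control library 4 are below it for 8 of 9.

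Leaving out labelled Alk1-HEC-KO library 4 moved the median log2 fold change of the stellate genes to -0.26, with 3 pointing higher and 7 lower of the 10 then tested, and 0 passed (edgeR). In that library other mesenchymal markers were high as well, and so were markers of cells outside the mesenchyme. The summed level of 12 portal fibroblast markers was 39.8 TPM there, against 13.1 to 26.1 TPM in the other libraries labelled Alk1-HEC-KO and 13.4 to 28.6 TPM in controls. That of 24 activated myofibroblast markers was 186 TPM, against at most 78.6 TPM in controls. Spp1 and Vim gave 46.7 and 43.9 TPM of it. Kupffer cell, cholangiocyte and sinusoidal endothelial markers summed to 161, 58.7 and 94.7 TPM there, against at most 122, 34.0 and 89.3 TPM in any other library. Hepatocyte markers, at 69400 TPM, lay inside the range of the controls. The part of these cells in the stellate values was not tested.

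The genes most like Lrat over the 10 libraries were Rsbn1l, Pkd2, Prelp, Serpinb6b and Adam10, each with a Pearson r of 0.91 or 0.92 in log2 CPM, Spearman rho of 0.83 to 0.94, and r of 0.80 to 0.91 over the 8 libraries nearest the median of Lrat. They are the top 5 of 12871 genes ranked, so these values are descriptions and carry no p. Prelp, a matrix proteoglycan, stands in the list of other stellate markers. Of the stellate genes, Dcn had the highest Pearson r with Lrat over 10 libraries (0.71, with rho = 0.62), but over the 8 libraries its r was 0.47. Ecm1 was nearer by the other 2 measures (r = 0.52, rho = 0.71, r over 8 libraries 0.70). Rgs5 had the lowest r over 10 and over 8 libraries (0.15 and -0.08), while Hand2 had the lowest rho (0.10, against 0.22 for Rgs5).

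Beyond the 10 genes, 26 other stellate markers were listed, of which 24 were tested. None passed (edgeR, 0 in either direction, 1 at an unadjusted p under 0.05), 20 pointed higher and 4 lower, and the median log2 fold change was 0.19. Without labelled Alk1-HEC-KO library 4 the same list had 11 pointing higher and 13 lower, with a median of -0.04. Nes, the filament protein nestin, had the smallest p, at 0.599 ± 0.451 TPM in libraries labelled Alk1-HEC-KO and 0.200 ± 0.0918 TPM in controls (SD, n = 5; log2 fold change 1.53, standard error 0.46; edgeR, adjusted p = 0.31), and stood at 0.96 without labelled Alk1-HEC-KO library 4. Gdf10, a ligand of the TGF-beta family, stood at 0.53 (0.25), and the most abundant member, the chemokine gene Cxcl12, at 0.08 (0.13).

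Both stellate ligands of ALK1 stand in that list. Bmp10 averaged 0.402 ± 0.162 TPM in libraries labelled Alk1-HEC-KO and 0.546 ± 0.163 TPM in controls (SD, n = 5; log2 fold change -0.57, standard error 0.30; edgeR, adjusted p = 0.64). Gdf2, which encodes BMP9 and which was added with its values in view, averaged 3.30 ± 0.844 TPM in libraries labelled Alk1-HEC-KO and 3.10 ± 0.854 TPM in controls (SD, n = 5; log2 fold change 0.02, standard error 0.21; edgeR, adjusted p = 0.98).

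Genes of activated stellate cells and myofibroblasts had no called member. Of 24 listed, 21 were tested, 16 pointed higher and 5 lower, with a median of 0.15 (edgeR, 1 at an unadjusted p under 0.05). Without labelled Alk1-HEC-KO library 4 the balance turned, with 4 pointing higher and 17 lower and a median of -0.29. Tgfb1, the cytokine that drives activation and that many cell types make, had the smallest p, at 7.04 ± 2.57 TPM in libraries labelled Alk1-HEC-KO and 3.79 ± 0.602 TPM in controls (SD, n = 5; log2 fold change 0.81, standard error 0.21; edgeR, adjusted p = 0.19). It was called higher by DESeq2 and without the count filter (adjusted p = 0.032 and 0.022). Col5a2, a fibrillar collagen gene, stood at 0.90 (0.43), Tnfrsf12a, the TWEAK receptor gene, at -0.50 (0.25), and Spp1, the abundant osteopontin gene that bile duct cells also express, at 0.09 (0.33). Without labelled Alk1-HEC-KO library 4 Tgfb1 stood at 0.56, Col5a2 at 0.34 and Spp1 at -0.33.

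**Figure D5:**
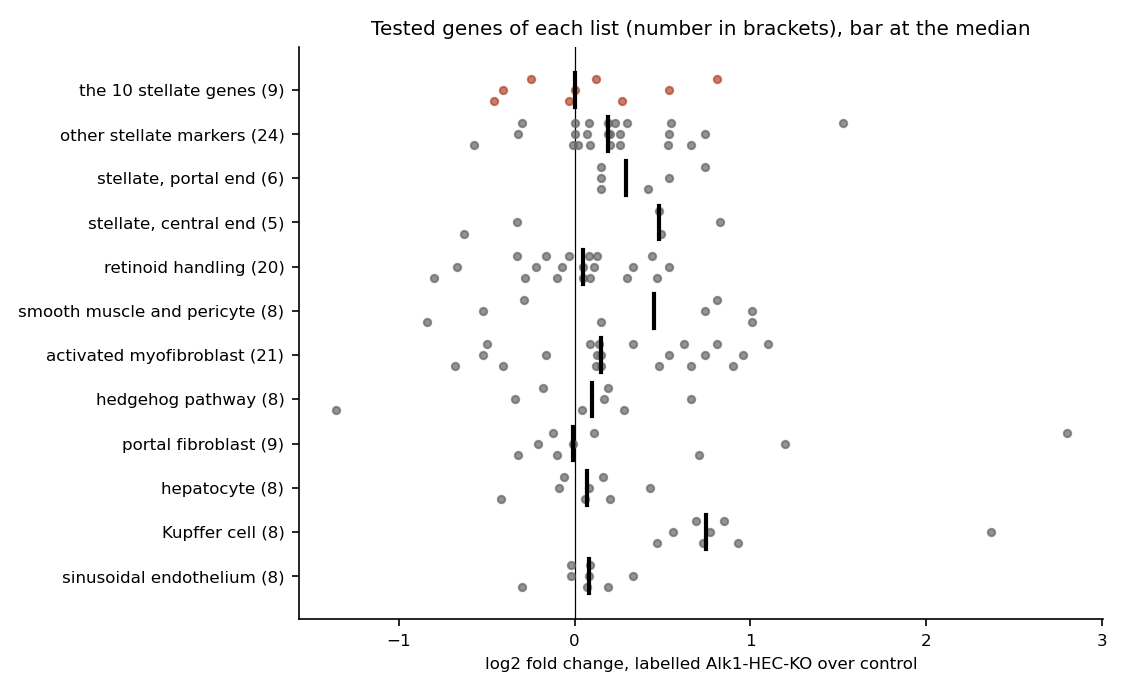
Log2 fold change, libraries labelled Alk1-HEC-KO over control, of the tested genes of each list (points, 1 per gene) with the median of the list (bar). The 10 stellate genes (red, 9 tested) have their median at 0.00, the other stellate markers at 0.19 and the Kupffer cell markers at 0.75. The point at 2.80 is Cd34, the only called gene shown.

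Markers of other cells gave 1 called gene. Of 12 portal fibroblast markers, 9 were tested and 1 rose, Cd34, a sialomucin that capillary endothelium also carries, at 3.60 ± 2.52 TPM in libraries labelled Alk1-HEC-KO and 0.486 ± 0.179 TPM in controls (SD, n = 5; log2 fold change 2.80, standard error 0.44; edgeR, adjusted p = 0.012), with a list median of -0.01. Its call was lost without control library 5 (log2 fold change 2.73; edgeR, adjusted p = 0.053), without the 2 libraries high in Fos (2.97; adjusted p = 0.14) and with the run of file numbers as a covariate (2.36; adjusted p = 0.42). The 8 Kupffer cell markers, for resident macrophages of the sinusoid, all pointed higher with a median of 0.75, 6 of them at an unadjusted p under 0.05 and 0 called (edgeR), and summed to 81.7 to 161 TPM in libraries labelled Alk1-HEC-KO against 48.1 to 83.8 TPM in controls. Their part in the stellate values was not tested. The 8 hepatocyte and 8 sinusoidal endothelial markers had medians of 0.07 and 0.08 and no called member (edgeR, 0 also at an unadjusted p under 0.05 in both). Cholangiocyte markers had 4 of 8 tested (median 0.18, 1 at an unadjusted p under 0.05, 0 called by edgeR), and 1 of 7 mesothelial markers was tested.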

How the data were processed

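RNA of 10 whole mouse liver libraries was sequenced. The submitters' processing notes list kallisto 0.4.6, Trim Galore 0.6.4 and GRCm38.p6. How transcripts were summed to genes and whether strand was used are not given in the sources used here. The authors deposited estimated counts and TPM per gene for each library. TPM were used for levels. Estimated counts, 38.3% of the nonzero ones whole within 1e-06, were rounded for the test, and library totals moved by at most 0.00078%. Symbols came from a GRCm38 gene table (55144 of 55385 IDs matched). Coordinates are from GENCODE on GRCm38, 1-based.

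Counts were filtered with filterByExpr, scaled by TMM (factors 0.869 to 1.107) and fitted in edgeR 4.0.16 under R 4.3.3 (quasi-likelihood, robust, group as the only term, biological coefficient of variation 0.272), labelled Alk1-HEC-KO over control, adjusted by Benjamini-Hochberg over 12872 genes. Standard errors and 95% intervals were derived from the quasi-likelihood F. Hhip, which the filter left out, had an exact permutation test of TPM. DESeq2 1.42.0 and limma 3.58.1 were alternatives. The test was checked on simulated counts for this comparison (12711 genes), where it called 8% of the genes given a 1.5-fold change, 50% at 2-fold and 90% at 4-fold, with 10 false among 130 calls. No 2 libraries agreed within counting noise. The replicate numbers of the groups were not treated as pairs.

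The members and the 20 gene lists were chosen with earlier results of these data known. The rule for named genes took the 10 members, Acvrl1, called genes, 3 genes with the smallest p and the most abundant gene per list, and the 5 genes nearest Lrat. Values are printed for the lists of stellate, retinoid, hedgehog, myofibroblast and pericyte genes, and other lists are given by counts, except 1 that is not reported here. Vldlr, Lrp8, Dab1, Higd1b, Hand2os1, Saa1, Fos and Gdf2 lie outside the rule and were chosen after their values were seen.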

Additional observations from a re-analysis of the deposited data

Results flagged for a closer look

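Among the stellate genes and the other genes named with values, 76 groups of 5 libraries were checked for outliers. In them 5 samples stood farther from the rest of their group than Dixon's critical value at the 95% level allows. Chance passes that mark in about 1 of 20 groups, so 5 of 76 lies near that share. The level of Hhip in labelled Alk1-HEC-KO library 5 was 0.00523 TPM, on 1 count. Adamtsl2 was high in labelled Alk1-HEC-KO library 4 (17.6 TPM) and in control library 4 (4.66 TPM). Spp1 was high in labelled Alk1-HEC-KO library 4 (46.7 TPM). Ihh was low in control library 1 (0.931 TPM).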

How the results depend on the processing

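Over 24 alternatives, none called a stellate gene. The 46 genes called over all tested genes became 33 to 83 when each library was left out in turn, with the highest count without labelled Alk1-HEC-KO library 1 (83). They were 119 without the count filter, 152 in DESeq2, 25 among genes averaging 1 TPM or more, 5 with the run of file numbers as a covariate, 18 without the third run, 30 without the 3 libraries high in Saa1, 17 without the 2 high in Fos, and 29 without labelled Alk1-HEC-KO libraries 4 and 5. That last setting and the transcript length offsets were chosen after seeing the data. The causes were not tested.

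Same-numbered libraries of the 2 groups had correlations of -0.10 to 0.276 in their deviations from the group means, and 2 of 5 correlated best with their own number, so the numbers were not taken as pairs. The replicate block called 40 genes and 0 stellate genes.

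The log2 fold changes of Reln, Rgs5, Hand2, Colec10 and Colec11 kept their direction in the 24 alternatives, and that of Ngfr in the 23 in which it was tested, its mean being under 1 TPM. That of Lrat (-0.03) ran from -0.33 to 0.11 over the 24 alternatives and from -0.28 to 0.11 without single libraries. It was 0.06 by library totals alone, 0.08 without the libraries high in Fos and 0.01 in limma on log2(TPM + 1). That of Ecm1 (0.00) ran from -0.14 to 0.16. Without single libraries Dcn (0.12) ran from -0.26 to 0.24, Adamtsl2 (0.83) from -0.01 to 1.08, Gdf2 (0.02) from -0.14 to 0.13, Igfbp3 (0.15) from -0.34 to 0.33 and Spp1 (0.09) from -0.33 to 0.21, and Hhip in TPM differed by -0.0412 to -0.00355. With the run as a covariate, Dcn, Adamtsl2, Cxcl12, Gdf10, Gdf2, Igfbp3, Spon2 and Spp1 turned to -0.38, -0.61, -0.16, -0.05, -0.20, -0.11, -0.04 and -0.55. Without the third run, Dcn, Adamtsl2, Cxcl12, Gdf2, Igfbp3, Spon2 and Spp1 turned to -0.35, -0.63, -0.16, -0.16, -0.12, -0.08 and -0.56. Without the libraries high in Saa1, Dcn, Gas1, Gdf2, Igfbp3, Il34, Rarg and Spp1 turned to -0.32, -0.02, -0.28, -0.22, -0.08, -0.09 and -0.59. Without labelled Alk1-HEC-KO libraries 4 and 5, Dcn, Adamtsl2, Cxcl12, Gdf2, Igfbp3 and Spp1 turned to -0.26, -0.04, -0.02, -0.15, -0.21 and -0.45. Spp1 was -0.04 with the block. Depth limits Hhip, with 55 counts in all in libraries labelled Alk1-HEC-KO and 68 in controls.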
